A study of Mus musculus with 14 samples.

Results

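Genes of the choroid plexus were examined in whole brains of male mouse fetuses, as 10 genes chosen by symbol: Ttr, Kl, Folr1, Otx2, Kcne2, Clic6, Aqp1, Sostdc1, Enpp2 and Prlr. They are 10 of the 41934 genes listed for each age, and each symbol belonged to a single entry. RNA sequencing covered 14 fetuses, namely 4 Dio3+/+ and 2 Dio3-/- brains at E13.5 and 3 Dio3+/+ and 5 Dio3-/- brains at E18.5. All were on a C57BL/6J background and came from timed matings of heterozygous parents. The Dio3-/- fetuses carry inactivating point mutations in Dio3, the gene of the type 3 deiodinase that clears thyroid hormone, in every cell of the body, and the mutated mRNA is still made. For each gene and age the authors' deposited value is a single mean normalized count over all libraries of that age, with both genotypes in it. No value of a single fetus was analysed here, so no level below has an SD, no difference has a test, and the genotypes were not compared. Dio3-/- fetuses supplied 33.3% of the libraries in the E13.5 mean and 62.5% of those in the E18.5 mean. Age, the share of each genotype and the separate normalization of the ages therefore cannot be told apart in any difference given below.

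The choroid plexus is a sheet of epithelium over a core of vessels and connective tissue that projects into the brain ventricles and secretes cerebrospinal fluid. Its epithelial cells arise next to the roof plate of the neural tube, move water and ions across tight junctions, and pass vitamins, hormones and carrier proteins from blood into the fluid. The plexus is also a site where thyroxine enters the brain fluid, bound to transthyretin made by the epithelium.

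The deposited means summed to 28582629 at E13.5 and to 24565726 at E18.5, and each gene's level was expressed as its share of that sum in parts per 1000000 (ppm). Together the 10 genes accounted for 295 ppm at E13.5 and for 706 ppm at E18.5, which is 2.39 times as much. The mean at E18.5 was at least 2-fold higher for 7 genes (Ttr, Kl, Folr1, Aqp1, Sostdc1, Enpp2 and Prlr), at least 2-fold lower for Otx2, and within 2-fold for Kcne2 and Clic6. Among the 18789 genes whose mean normalized count averaged 10 or more over both ages, 11.8% were at least 2-fold higher and 6.66% at least 2-fold lower. The median log2 ratio of E18.5 over E13.5 was 1.17 for the 10 genes and -0.06 for all genes counted. All 10 genes passed this minimum, and all 10 had a mean of at least 10 at each age. In bulk tissue, fewer cells of a type and less RNA per cell cannot be told apart.

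**Figure D1:**
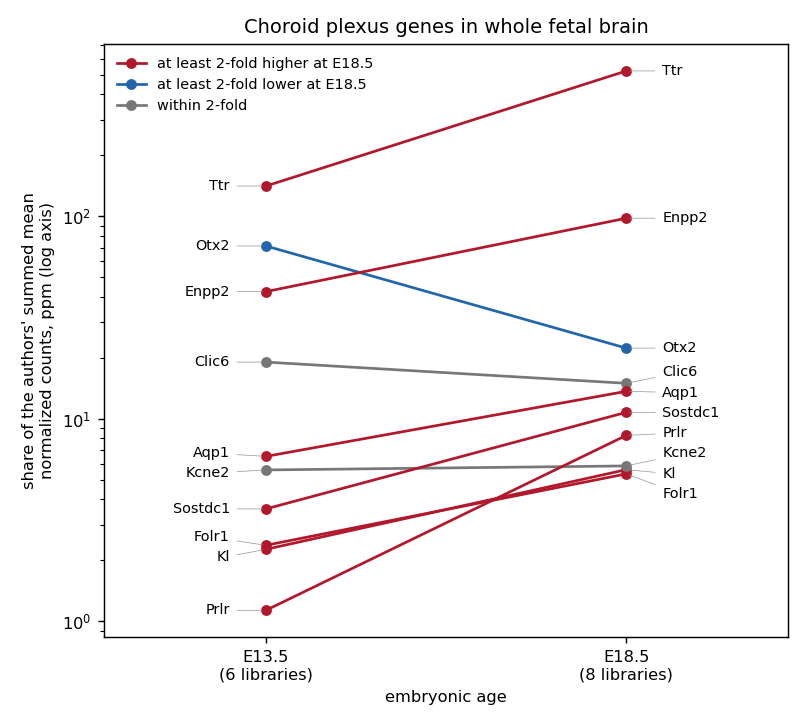
Share in ppm of the authors' summed mean normalized counts (log axis) for the 10 genes at E13.5 and E18.5, with 1 pooled value per gene and age and no error. Lines in red join the 7 genes that were at least 2-fold higher at E18.5, the line of Otx2 runs from 71.4 down to 22.3 ppm, and Kcne2 and Clic6 stay within 2-fold.

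Proteins secreted or shed into the fluid were examined first. Ttr (ENSMUSG00000061808.4, chromosome 18 of GRCm38, 20665280 to 20674321), which encodes the carrier of thyroxine and of the retinol-binding protein, had a mean normalized count of 4030 at E13.5 and of 12817 at E18.5. This is 141 ppm against 522 ppm, a log2 ratio of 1.89, and 96.2% of all genes counted had a lower ratio. Ttr alone made up 47.7% of the summed level of the 10 genes at E13.5 and 73.9% at E18.5. Without Ttr, the summed level of the other 9 genes was 154 ppm at E13.5 and 185 ppm at E18.5, a ratio of 1.20, and with Otx2 also left out the ratio was 1.96. The summed level was thus carried mostly by Ttr, while the count of genes beyond 2-fold was not.

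Enpp2 (ENSMUSG00000022425.16, chromosome 15, 54838901 to 54952892) encodes autotaxin, a secreted enzyme that forms lysophosphatidic acid. Its mean normalized count was 1214 at E13.5 and 2403 at E18.5, or 42.5 and 97.8 ppm, with a log2 ratio of 1.20. Oligodendrocyte precursors are known to express Enpp2 as well, and their summed marker level was 118 ppm at E13.5 and 302 ppm at E18.5. Of the 6 markers of that lineage, 3 were at least 2-fold higher and none lower. Among all genes counted, 11.8% were at least 2-fold higher and 6.66% at least 2-fold lower. The part of that lineage in the level of Enpp2 was not tested.

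Sostdc1 (ENSMUSG00000036169.6, chromosome 12, 36314139 to 36318452) encodes a secreted antagonist of BMP and Wnt signaling. Its mean normalized count was 103 at E13.5 and 265 at E18.5, a log2 ratio of 1.56. Kl (ENSMUSG00000058488.7, chromosome 5, 150952607 to 150993817) encodes klotho, a membrane co-receptor of FGF23 whose outer part is shed into fluid. Its mean normalized count was 64.8 at E13.5 and 138 at E18.5, with a log2 ratio of 1.27. The 4 genes grouped here were each more than 2-fold higher in the mean of E18.5, while 11.8% of all genes counted were at least 2-fold higher. The grouping was not planned in advance. With a pseudocount of 1 ppm in place of 0.1, the log2 ratio of Kl was 1.02, close to the limit.

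The genes for membrane transport did not move as a block. Aqp1 (ENSMUSG00000004655.5, chromosome 6, 55336432 to 55348555), the water channel of the apical membrane, had a mean normalized count of 186 at E13.5 and of 336 at E18.5, a log2 ratio of 1.06. Folr1 (ENSMUSG00000001827.12, chromosome 7, 101858331 to 101870788), the folate receptor that carries folate into the fluid, had 67.9 at E13.5 and 131 at E18.5, a log2 ratio of 1.14. These ratios lay nearest to the 2-fold limit, and both were below it, at 0.96 for Aqp1 and 0.91 for Folr1, with a pseudocount of 1 ppm in place of 0.1. Red cells and some endothelia also express Aqp1. The summed level of the 8 red cell markers was 1229 ppm at E13.5 and 156 ppm at E18.5. Most of this difference came from the embryonic globins Hbb-y and Hba-x, and the other 6 markers summed to 302 and 155 ppm. The 6 endothelial markers summed to 267 and 323 ppm. The part of these cells in the level of Aqp1 was not tested.

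Kcne2 (ENSMUSG00000039672.12, chromosome 16, 92292389 to 92298129), an accessory subunit of potassium channels, had a mean normalized count of 160 at E13.5 and of 144 at E18.5. On the share scale the levels were 5.59 and 5.85 ppm, a log2 ratio of 0.06. Clic6 (ENSMUSG00000022949.9, chromosome 16, 92485736 to 92541243), a member of the chloride intracellular channel family, had 545 at E13.5 and 368 at E18.5, a log2 ratio of -0.35. Kcne2 and Clic6 were therefore the 2 genes within 2-fold, while Aqp1 and Folr1, which act in the same epithelium, were about 2-fold higher at E18.5. With no value per fetus, the interval of these ratios is unknown.

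Otx2 and Prlr, a transcription factor and a hormone receptor, stood at opposite ends. Otx2 (ENSMUSG00000021848.16, chromosome 14, 48657677 to 48673819) encodes a homeodomain factor that the plexus needs to form and that also patterns the forebrain and midbrain. Its mean normalized count was 2040 at E13.5 and 549 at E18.5, which is 71.4 against 22.3 ppm and a log2 ratio of -1.67. A lower ratio was found for 2.23% of all genes counted. Otx2 made up 24.2% of the summed level of the 10 genes at E13.5 and 3.16% at E18.5. The 6 midbrain markers were all at least 2-fold lower at E18.5 as well, against 6.66% of all genes counted. Their summed level was 358 ppm at E13.5 and 84.5 ppm at E18.5, and Gata3 among them had a log2 ratio of -1.79. Of the 8 markers of neural tissue, 2 were at least 2-fold lower, namely Nes (log2 ratio -2.20) and Vim (-1.60). The other 6 were within 2-fold, with log2 ratios from -0.91 to 0.86. The part of midbrain cells in the level of Otx2 was not tested.

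Prlr (ENSMUSG00000005268.20, chromosome 15, 10177238 to 10349180), the receptor for prolactin and placental lactogens, had a mean normalized count of 32.4 at E13.5 and of 204 at E18.5. Its shares were 1.13 and 8.28 ppm. The log2 ratio of 2.76 was the highest of the 10 genes, and 98.9% of all genes counted had a lower one. Prlr was also the gene with the lowest mean count at E13.5, and with a pseudocount of 1 ppm its log2 ratio was 2.12. The pituitary and hypothalamus are also known to express Prlr, and the 6 pituitary markers summed to 2.85 ppm at E13.5 and to 45.9 ppm at E18.5. Most of the latter was Gh, the growth hormone gene, which was listed at 0 at E13.5 and had 39.2 ppm at E18.5. The part of pituitary cells in the level of Prlr was not tested.

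**Figure D2:**
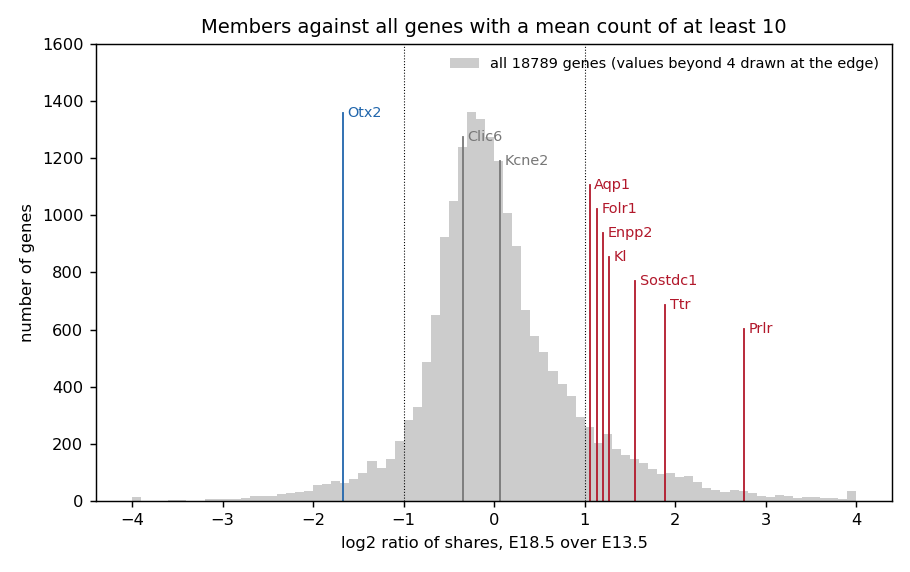
Histogram of the log2 ratio of shares, E18.5 over E13.5, over the 18789 genes counted, with a vertical line for each of the 10 genes and dotted lines at the 2-fold limits. The lines of 7 genes stand to the right of the upper limit, from 1.06 for Aqp1 to 2.76 for Prlr, and that of Otx2 stands to the left of the lower limit at -1.67.

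The promoters of Otx2, Prlr and Kcne2 are shown because these genes had the lowest ratio, the highest ratio and the ratio nearest to 0. The sequences are from RefSeq (GRCm38.p6) and run 5′ to 3′ along the gene, from 250 bases before a start site to 50 after it. Capitals mark the core of the sequence that OTX2 and related homeodomain factors bind, TAATCC or GGATTA on the other strand, which do not overlap one another here. Of the 10 genes, 5 were matched in the table of promoters (Kl, Aqp1, Otx2, Prlr and Kcne2), with 11 start sites. Without an entry were Ttr, Folr1, Clic6, Sostdc1 and Enpp2.
Otx2, minus strand, chr14:48665060-48665359: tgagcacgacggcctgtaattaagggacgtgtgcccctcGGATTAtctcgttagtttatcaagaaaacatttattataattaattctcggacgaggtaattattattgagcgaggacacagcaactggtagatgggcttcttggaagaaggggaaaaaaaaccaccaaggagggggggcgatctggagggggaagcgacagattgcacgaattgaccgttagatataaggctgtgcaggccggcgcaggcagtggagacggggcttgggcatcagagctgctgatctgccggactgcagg
Prlr, plus strand, chr15:10176988-10177287: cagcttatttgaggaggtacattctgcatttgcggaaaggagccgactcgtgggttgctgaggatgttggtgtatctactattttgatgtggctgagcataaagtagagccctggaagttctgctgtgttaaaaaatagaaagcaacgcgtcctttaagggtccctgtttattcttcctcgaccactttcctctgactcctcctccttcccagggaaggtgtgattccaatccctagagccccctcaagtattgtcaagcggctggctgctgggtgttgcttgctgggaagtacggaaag
Kcne2, plus strand, chr16:92292139-92292438: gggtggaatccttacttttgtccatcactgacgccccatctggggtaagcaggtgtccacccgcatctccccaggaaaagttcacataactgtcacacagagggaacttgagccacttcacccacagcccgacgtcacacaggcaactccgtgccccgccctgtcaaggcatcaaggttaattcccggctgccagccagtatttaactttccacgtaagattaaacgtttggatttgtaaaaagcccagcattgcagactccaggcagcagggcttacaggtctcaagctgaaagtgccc

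The core was found in 1 of the 11 promoters, one of the 4 start sites of Otx2, where it begins at position -211 from the start. Among all 32851 promoters of the same length, with no chromosome left out, 7.06% hold it. The Otx2 start was chosen for this match, and for Prlr and Kcne2 the first start along the gene is shown. A count per gene does not say which start was used.

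For a comparison of levels between the 10 genes, shares were divided by the exon length, taken as the union of all exons of a gene in kilobases. Ttr led at both ages, with 119 ppm per kilobase at E13.5 and 440 at E18.5, which is 7.03 and 26.0 times the level per kilobase of the next gene by this length, and 4.32 and 13.9 times by the length of the longest transcript. The order at E13.5 after Ttr was Otx2 (16.9 ppm per kilobase), Enpp2 (7.35), Clic6 (4.87), Kcne2 (3.16), Aqp1 (2.48), Sostdc1 (2.02), Folr1 (1.03), Kl (0.24) and Prlr (0.07). At E18.5 Enpp2 came second (16.9 ppm per kilobase), before Sostdc1 (6.05), Otx2 (5.29), Aqp1 (5.20), Clic6 (3.83), Kcne2 (3.31), Folr1 (2.33), Kl (0.60) and Prlr (0.54). By this length 4 genes kept their place in the order between the ages, namely Ttr, Folr1, Kl and Prlr. Whether neighbours in these orders differ beyond the spread between fetuses cannot be said without values per fetus. With the length of the longest transcript in place of the exon union, all 10 places were the same at E13.5 and 5 of 10 at E18.5. Folr1 then stood at place 8 at E13.5 and at place 6 at E18.5, so that 3 genes, Ttr, Kl and Prlr, kept their place between the ages.

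**Figure D3:**
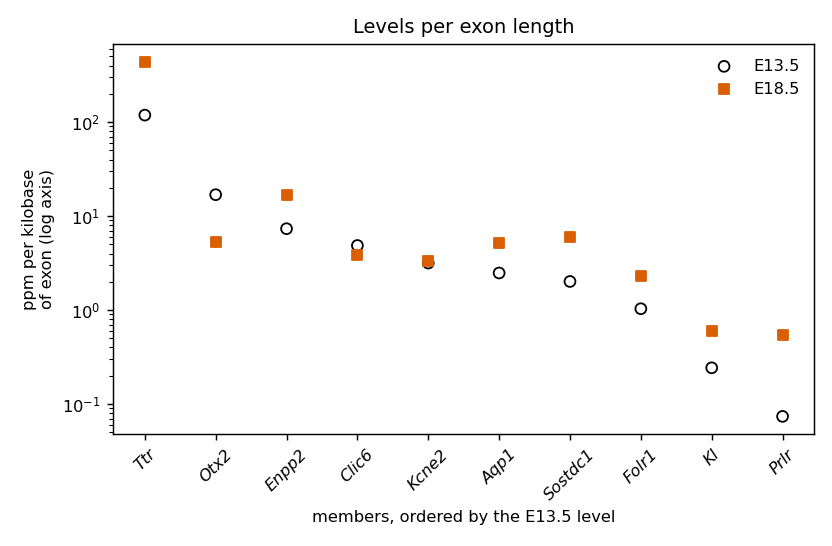
Level in ppm per kilobase of exon (log axis) for the 10 genes, ordered by the level at E13.5, with open circles for E13.5 and filled squares for E18.5. Ttr stands above the others at both ages, and Otx2 and Clic6 are the genes whose square lies below the circle.

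Reads were counted without strand, and exons of other genes overlap those of 3 of the 10. For Otx2, 154 bases (3.65% of its exon length) overlap the antisense RNA Otx2os1 and 168 bases (3.98%) overlap Gm49154. For Enpp2, 345 bases (5.97%) overlap Gm26684 on the other strand. For Prlr, 203 bases (1.32%) overlap Gm21973, which is listed at 0 at both ages. The highest mean normalized count among the overlapping genes was 69.7, that of Otx2os1 at E13.5. This value sets no bound on reads that a member gained or lost at shared bases, which were not measured.

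Other genes known from choroid plexus epithelium were taken from a list of 44 symbols, of which 43 were in the tables and passed the count minimum. The other symbol, Ecrg4, is a newer name of 1500015O10Rik, which was also listed and found. Of the 43 genes, 17 were at least 2-fold higher at E18.5, 1 was at least 2-fold lower and 25 were within 2-fold, against the 11.8% and 6.66% of all genes. Their median log2 ratio was 0.65, and their summed level was 649 ppm at E13.5 and 1048 ppm at E18.5. The highest ratios were those of Tmem72 (log2 ratio 3.68), the sulfate transporter Slc13a4 (3.62), the tight junction gene Cldn2 (2.88), Ace (2.80) and Perp (2.58). Slco1c1, a transporter of thyroxine that capillaries also carry, had 8.20 ppm at E13.5 and 47.9 ppm at E18.5, a log2 ratio of 2.53, beside the 1.89 of Ttr. The mutated gene Dio3 had a mean normalized count of 99.0 at E13.5 and of 129 at E18.5. In wild-type brains, the paper found by qPCR that Dio3 mRNA decreased between these ages. It also found more Dio3 mRNA in Dio3-/- than in Dio3+/+ brains at both ages. The pooled means, with a larger share of Dio3-/- libraries at E18.5, thus do not give the course of Dio3 in wild-type brain. Since both genotypes are in these means and the mutated mRNA is made, they do not check the genotype labels.

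The 1 gene of that list beyond 2-fold in the lower direction was Lmx1a, a roof plate factor that midbrain neurons also use, with 19.3 ppm at E13.5 and 5.54 ppm at E18.5 (log2 ratio -1.78). The next lowest were Col8a2 (-0.81), the roof plate factor Msx1 (-0.77), the keratin gene Krt8 (-0.67) and the anion exchanger gene Slc4a2 (-0.53). Lmx1a and Otx2 were thus the transcription factors with the lowest ratios in either list. Many genes of this list are active in other brain cells too, and their part was not tested.

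Markers of other tissues that express some of the 10 genes were set beside them. The tissue is labelled fetal brain, and all 8 neural markers lay between 151 and 2053 ppm at E13.5 and between 80.3 and 2716 at E18.5. Of markers of liver, the other main source of Ttr, and yolk sac, Afp stood at 5.44 ppm at E13.5 and 0.902 at E18.5. Alb stood at 3.54 ppm at E13.5 and 2.59 at E18.5, and the 8 liver and yolk sac markers summed to 10.7 and 5.54 ppm. Per kilobase, Ttr was 78.6 times as high as Alb at E13.5 and 398 times at E18.5. The part of such cells in the level of Ttr was not tested. The pigment epithelium also expresses Ttr and Otx2, and 3 of the 7 markers listed for it and for melanocytes passed the count minimum. These were Rlbp1, Dct (1.06 ppm at E13.5 and 0.649 at E18.5) and Pmel (0.415 and 0.426 ppm). Rpe65 did not pass it, with 0.038 ppm at E13.5 and 0.0051 at E18.5. The 7 markers of that list summed to 8.86 and 25.6 ppm, most of it from Rlbp1, which glia also express. For the 8 markers of leptomeninges the summed level was 805 ppm at E13.5 and 721 at E18.5, but single markers differed in opposite directions. Ptgds had 2.28 ppm at E13.5 and 213 ppm at E18.5, and without it the other 7 summed to 803 and 507 ppm. The 10 genes of multiciliated cells, whose program the plexus epithelium also uses for its cilia, summed to 46.5 ppm at E13.5 and 49.8 ppm at E18.5. Of the 9 that passed the count minimum, 1 was at least 2-fold higher (Spag6l, log2 ratio 1.11). At least 2-fold lower were 2, namely Gmnc (-1.19) and Ccno (-1.14). Among all genes counted, 11.8% were at least 2-fold higher and 6.66% at least 2-fold lower. Foxj1, the gene of highest ppm in that list at both ages, had a log2 ratio of -0.21.

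**Figure D4:**
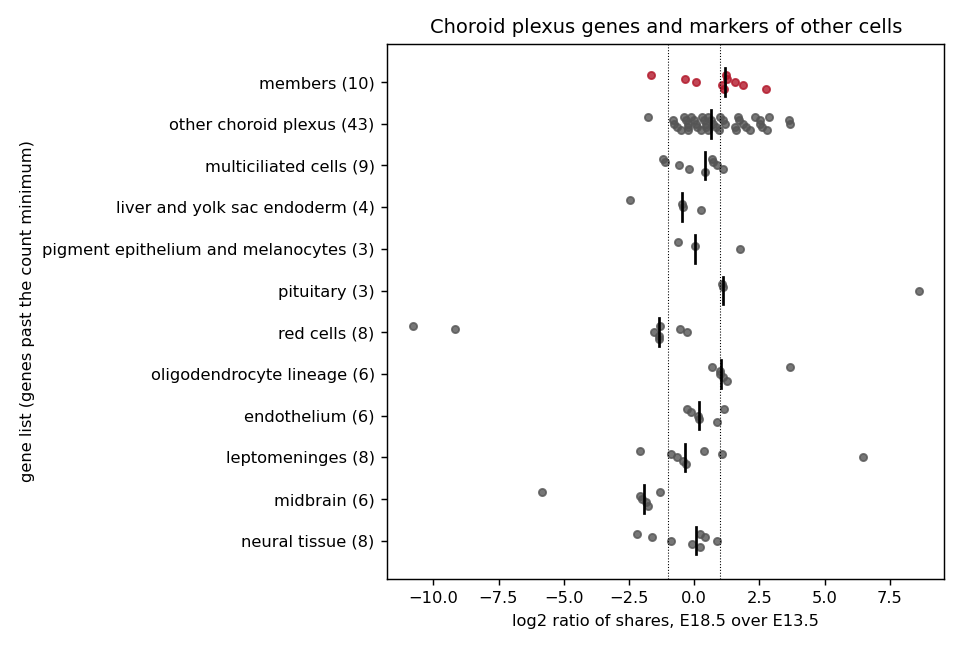
Log2 ratio of shares, E18.5 over E13.5, for each gene past the count minimum in the 10 choroid plexus genes (red) and in the lists of markers (grey), with a bar at each median, the number of genes in brackets and dotted lines at the 2-fold limits. The bar lies at 1.17 for the 10 genes, at 0.65 for the other choroid plexus genes and at -1.92 for midbrain, and the pituitary point at the far right is Gh, which is listed at 0 at E13.5.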

How the data were processed

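Whole brains of 14 male fetuses were sequenced in 2 batches. Per the labels and the methods, the authors trimmed reads with cutadapt 3.1, aligned them with STAR 2.5.3a to GRCm38, counted them per gene with HTSeq without strand, adjusted counts between the batches with ComBat-seq and ran DESeq2 1.30.1 within each age. Each deposited table gives 1 signal per gene that was used here, the authors' mean over all libraries of an age of counts divided by size factors. The batch adjustment can change these means, and the depth of each single library is unknown, since the methods give only a range of aligned reads for the first batch. The other deposited columns hold the authors' own comparison of the genotypes (fold changes, standard errors, Wald statistics and p-values) and were not used. The number of unused columns of values per sample was 0.

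Means were divided by their sum over all genes of the table, and the ratio was log2((E18.5 share + 0.1)/(E13.5 share + 0.1)), in shares in parts per 1000000 (ppm), with a limit of 2-fold. Genes with an average of both means of at least 10 were counted. Positions and exon lengths came from GENCODE M21 (GRCm38), 1 release before that of the authors, with 37 genes unmatched by identifier. Python 3.11.15, numpy 2.4.6 and pandas 2.3.3 were used, and the ratio was tested on simulated data. No test was possible with 1 pooled value per age. The 10 genes, all lists and the limits were chosen with earlier results of these data known. Besides the 10 genes, the text names the 5 highest and 5 lowest ratios of the other choroid plexus list, Slco1c1 and Dio3. The gene of highest ppm, not divided by length, was to be named for each marker list and age. The text names it for some of the lists only. Rpe65, Dct, Pmel, Hba-x, Spag6l, Gmnc, Ccno, Nes, Vim, Alb's ratio to Ttr and the genes that overlap or adjoin one of the 10 were named after their values were seen. The sums of red cell markers without Hbb-y and Hba-x, and of leptomeningeal markers without Ptgds, were not planned either.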

Additional observations from a re-analysis of the deposited data

How the results depend on the processing

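For each of the 10 genes the ratio was computed again under 7 alternatives: 4 other scalings between the ages (median of ratios, shares without the 100 highest genes of either age, shares of protein-coding genes, upper quartile), no count minimum, a minimum of 10 at both ages, and a pseudocount of 1 ppm. The count minimum cannot move the ratio of a gene that passes it, so that 5 alternatives, with 50 values, bear on these ratios. Of the 50 values, 48 kept their direction and their side of the 2-fold limit. The others were those of Aqp1 and Folr1 with the larger pseudocount, which left 5 in place of 7 genes at least 2-fold higher. The median log2 ratio of the 10 genes ranged from 0.99 to 1.24, and Otx2 was the 1 gene at least 2-fold lower under each alternative. The count of other choroid plexus genes at least 2-fold higher ranged from 16 to 19. With no count minimum the share of all genes at least 2-fold higher was 6.66% and that at least 2-fold lower was 3.42%, since genes near 0 then enter with ratios set by the pseudocount. By the longest transcript, 5 of the 10 genes kept their place in the order of levels per length at E18.5. No replicate could be left out. No paired analysis was possible because the tables give no value per library. For the same reason no error, interval or outlier among fetuses could be computed.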

Other observations

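Kcne2 and Clic6, the 2 genes whose levels stayed within 2-fold between the ages, lie on the same chromosome, 187606 bases apart and on the same strand. The annotation places 7 genes between them, of which 4 passed the count minimum. Rcan1, which encodes an inhibitor of calcineurin, had 43.4 ppm at E13.5 and 59.4 ppm at E18.5, a log2 ratio of 0.45. Smim11 had a log2 ratio of -0.92, and the 4 ratios ranged from there to that of Rcan1. All 4 were thus within 2-fold, as were 81.5% of all genes counted, so that this is near the background. Kcne1, which encodes a channel subunit of the same family as Kcne2, had a mean normalized count of 3.17 at E13.5 and of 1.86 at E18.5. The neighbourhood was looked at after the values of Kcne2 and Clic6 had been seen, and no test was made of it.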
